A study of Mus musculus with 4 samples.

Results

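Nodal and bone morphogenetic protein (BMP) signalling was described through 10 genes, Nodal, Gdf3, Bmp4, Tdgf1, Acvr2b, Bmpr1a, Lefty1, Lefty2, Smad7 and Id1, chosen by name from a table of 21470 genes. They were followed in 4 groups of 5 libraries each from wild-type mouse embryos of B6D2F1 males crossed with ICR females. Each embryo side gave 1 group per time, the inner cell mass (ICM) at D10 and at E4, and the trophectoderm (TE), the extra-embryonic tissue, at D10 and at E4. The series title places the times before and after embryonic diapause, a reversible arrest of the blastocyst. The protocols, however, name diapause embryos for both, and a barcode list uses the words before for E4 and day 6 for D10. Since the sources differ, the labels E4 and D10 are kept. E4 libraries came from 5 litters, of which 2 still had a zona pellucida (replicates 1 and 2), and D10 libraries from 5 other litters, none with a zona. Replicates of a group were mixed before PCR, so amplification pool and group cannot be told apart.

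Nodal is a secreted ligand of the TGF-beta family. It signals through type I and type II activin receptors together with an EGF-CFC co-receptor, and its signal is carried to the nucleus by SMAD2 and SMAD3. Its targets include its own antagonists, the Lefty proteins, which close a negative feedback loop. BMP ligands use other type I receptors and act through SMAD1, SMAD5 and SMAD9, and genes of the Id family are among their best known targets. In the mouse blastocyst these ligands are made by cells of the inner cell mass, which holds the epiblast and the primitive endoderm.

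Library totals ran from 144276 to 1010354 counts, and 6943 genes passed the filter on low counts. Of the 10 members 9 passed, and Nodal did not. Sox2, which marks the epiblast, had 470 counts in D10 ICM and 421 in E4 ICM, against 0 in D10 TE and 1 in E4 TE. The summed level of 10 epiblast markers was 1331 to 2142 CPM in D10 ICM and 2105 to 3138 CPM in E4 ICM, where CPM is the count scaled to library size with TMM factors. That sum was 498 to 1032 CPM in D10 TE and 987 to 3539 CPM in E4 TE, where Dppa5a alone averaged 2250 CPM. The 10 primitive endoderm markers summed to 8143 to 11012 CPM in D10 ICM and 2022 to 4607 CPM in E4 ICM. The 10 trophectoderm markers summed to 3559 to 5673 CPM in D10 ICM and 2110 to 3005 CPM in E4 ICM. Replicate 3 of D10 ICM stood apart, with the highest trophectoderm sum of its group and the lowest Tdgf1, Bmp4, Lefty1, Lefty2 and Id1. Its Sox2 was not low, at 432 CPM, and only replicate 5 of that group was higher, at 576 CPM. Results that rest on replicate 3 of D10 ICM are given with and without it. In D10 TE, replicate 1 held 10 of 10 Tdh counts, 8 of 8 Esrrb, 8 of 9 Cubn, 36 of 44 Col4a1 and 9 of 11 Pdgfra counts. These are markers of epiblast or primitive endoderm, picked after their values were seen. Sox2 and Fgf4, from the same epiblast list, had 0 counts in all of D10 TE. Results that turn on replicate 1 of D10 TE are given without it as well.

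The comparison of D10 ICM with E4 ICM asked how these genes differed between the times in the embryonic tissue. Tdgf1, Bmp4 and Gdf3 fell at D10, and Id1 rose. The remaining 5 tested members did not pass the test, and Nodal was examined only without the filter. Thus 1 of the 9 tested members was called higher, against a background of 13.7% of all genes tested, and 3 were called lower, against 9.97%. Gdf3 and Bmp4 passed the filter only with their E4 ICM libraries, where they were high, and Id1 only with its D10 ICM libraries. These shares are therefore not read as support. In these bulk tissues fewer cells of a type and less RNA per cell cannot be told apart. The primitive endoderm and trophectoderm sums given above also moved between the 2 ICM groups without overlap. Among the primitive endoderm markers Sparc, Col4a1, Col4a2, Lama1, Cubn and Dab2 rose. Sparc alone had 11706 counts in D10 ICM and 2162 in E4 ICM. Gata6 fell, at -1.04 ± 0.30 (adjusted p = 0.0139), and Sox17, Gata4 and Pdgfra did not pass the test. Among the trophectoderm markers Gata3, Tfap2c, Krt18, Krt7 and Cldn4 rose, and Cdx2, Eomes, Krt8, Elf5 and Gata2 did not pass. Of the 10 epiblast markers 5 fell, among them Nanog at -2.55 ± 0.44 (adjusted p = 0.000158), while 0 rose. The part of these markers in the results was not tested.

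Among the ligands, Nodal (ENSMUSG00000037171, GRCm38 chromosome 10, 61417972 to 61425338, plus strand) had few counts. It had 14.3, 9.89, 11.1, 33.6 and 51.1 CPM in D10 ICM replicates 1 to 5, against 6.34, 0, 23.2, 6.2 and 0 CPM in E4 ICM. The D10 libraries 4 and 5 were highest, the E4 libraries 2 and 5 had no count, and the groups overlapped through E4 replicate 3. The pooled counts were 54 in D10 ICM and 14 in E4 ICM, a ratio of 3.01 (exact Clopper-Pearson 95% interval 1.65 to 5.86, which covers counting error only). In the fit without the filter, in which 6.46% of 20558 genes were called higher and 3.35% lower, the log2 fold change was 1.58 ± 0.63 (SE), with an adjusted p of 0.0992 that misses the threshold of 0.05, and without D10 ICM replicate 3 it was 1.72 (adjusted p = 0.0705). Without E4 ICM replicate 3, which held 10 of the 14 E4 counts, it was 2.84 and passed (adjusted p = 0.00874).

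Gdf3 (ENSMUSG00000030117, chromosome 6, 122605403 to 122610087, minus strand) encodes a ligand that shares receptors and co-receptor with Nodal. It had 33.3, 23.1, 27.7, 27.3 and 37.1 CPM in D10 ICM, against 133, 102, 69.5, 49.6 and 94.6 CPM in E4 ICM. Every D10 library was below every E4 library, and the D10 libraries lay close together. The means were 29.7 ± 5.52 CPM in D10 ICM and 89.7 ± 31.9 CPM in E4 ICM (SD, n = 5 each), a log2 fold change of -1.59 ± 0.33 (adjusted p = 0.00168), and -1.57 without D10 ICM replicate 3 (adjusted p = 0.00421).

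Bmp4 (ENSMUSG00000021835, chromosome 14, 46383520 to 46390669, minus strand) encodes a BMP ligand. It had 33.3, 56.0, 5.54, 32.5 and 27.9 CPM in D10 ICM, against 431, 83.6, 188, 105 and 198 CPM in E4 ICM. The groups did not overlap, replicate 3 was lowest at D10, and replicate 1 was highest at E4. The log2 fold change was -2.48 ± 0.40 (adjusted p = 8.15e-05), and -2.29 without D10 ICM replicate 3 (adjusted p = 0.000222). The last 500 bases of Bmp4 overlap Gm15217 on the opposite strand. Of the 607 runs of 81 bases in them, 9 (1.48%) also occur in Gm15217. Reads of the shared stretch cannot be assigned with certainty, since use of strand in the counting is not given in the sources used here.

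Tdgf1 (ENSMUSG00000032494, chromosome 9, 110939603 to 110946158, minus strand) encodes Cripto, the EGF-CFC co-receptor of Nodal. It had 119, 143, 38.8, 189 and 125 CPM in D10 ICM, against 1097, 619, 523, 436 and 654 CPM in E4 ICM. The highest D10 library was below the lowest E4 library. The log2 fold change was -2.35 ± 0.31 (adjusted p = 2.36e-05), and -2.15 without D10 ICM replicate 3 (adjusted p = 3.61e-05). Of the 1260 runs of 81 bases, the length of the insert read, in the last 500 bases of its transcripts, 55 (4.37%) also occur in the pseudogene Tdgf1-ps1, which had 1 count in all libraries. Tdgf1, Bmp4 and Gdf3 were 3 of the 10 members whose D10 ICM libraries all lay below the E4 ICM libraries, a pattern found in 6.45% of all genes tested.

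Promoters were taken from RefSeq (GRCm38.p6), which had an entry for 5 of the 10 members. The window runs from 250 bases before the start site to 50 after it. Tdgf1 and Bmp4 are shown because both fell in the ICM, and Bmpr1a because it encodes a receptor for BMP4 and did not pass the test there. Capitals mark the motifs found, on the strand of the gene.
Tdgf1, chr9:110946109-110946408, minus strand: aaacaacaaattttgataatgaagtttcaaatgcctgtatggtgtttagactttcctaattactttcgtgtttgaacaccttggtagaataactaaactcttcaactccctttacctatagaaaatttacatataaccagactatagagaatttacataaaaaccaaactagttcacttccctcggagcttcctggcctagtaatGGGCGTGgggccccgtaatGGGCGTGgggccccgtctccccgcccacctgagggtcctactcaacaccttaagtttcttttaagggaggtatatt
Bmp4, chr14:46390620-46390919, minus strand: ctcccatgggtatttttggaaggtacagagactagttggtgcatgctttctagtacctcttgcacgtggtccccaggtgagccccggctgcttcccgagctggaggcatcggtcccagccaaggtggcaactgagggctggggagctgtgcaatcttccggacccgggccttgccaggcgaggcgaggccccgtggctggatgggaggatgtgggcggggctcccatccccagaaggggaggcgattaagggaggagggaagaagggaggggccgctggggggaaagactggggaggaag
Bmpr1a, chr14:34502497-34502796, minus strand: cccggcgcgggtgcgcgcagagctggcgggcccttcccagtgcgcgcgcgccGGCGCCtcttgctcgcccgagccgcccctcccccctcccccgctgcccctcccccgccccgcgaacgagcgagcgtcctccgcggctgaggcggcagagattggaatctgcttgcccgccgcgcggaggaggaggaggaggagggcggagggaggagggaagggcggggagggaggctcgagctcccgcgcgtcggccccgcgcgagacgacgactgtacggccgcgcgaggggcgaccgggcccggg
Motifs were searched on both strands. The Foxh1 motif ATCCACA occurs in 3.38% of the 32851 promoters of that length, and its variant spelled ATACACA in 3.54% of them. The Smad motif CAGACA occurs in 21%, and the GC-rich Smad element GGCGCC in 11.9%. A GC-box-like motif, GGGCGTG, was added after the sequences had been read and occurs in 8.44%. None of these overlap in the windows shown. In Tdgf1 the motif GGGCGTG occurs at -45 and -26, in Bmpr1a GGCGCC occurs at -198, and the Bmp4 window holds none of these letters. GC content was 41.7% for Tdgf1, 64% for Bmp4 and 79.3% for Bmpr1a, against a median of 52.7% over all promoters.

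The receptors stayed within the spread of the libraries. Bmpr1a (ENSMUSG00000021796, chromosome 14, 34410734 to 34503341, minus strand), a type I BMP receptor, had 57.0, 44.5, 72.0, 42.0 and 65.0 CPM in D10 ICM, against 31.7, 60.1, 39.4, 45.5 and 68.8 CPM in E4 ICM. Acvr2b (ENSMUSG00000061393, chromosome 9, 119402118 to 119434995, plus strand), a type II activin receptor, had 4.75, 16.5, 11.1, 8.4 and 27.9 CPM in D10 ICM, against 12.7, 18.3, 18.5, 14.5 and 30.1 CPM in E4 ICM. Both genes overlapped between the times. Their log2 fold changes were 0.11 ± 0.27 for Bmpr1a (adjusted p = 0.989) and -0.50 ± 0.41 for Acvr2b (adjusted p = 0.409), and neither passed the test.

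Lefty1 and Lefty2, the secreted antagonists of Nodal, varied widely within a group. Lefty1 (ENSMUSG00000038793, chromosome 1, 180935022 to 180938400, plus strand) had 28.5, 52.7, 5.54, 25.2 and 18.6 CPM in D10 ICM, against 0, 2.61, 34.7, 39.3 and 0 CPM in E4 ICM. Lefty2 (ENSMUSG00000066652, chromosome 1, 180893108 to 180899103, plus strand) had 613, 183, 27.7, 50.4 and 190 CPM in D10 ICM, against 158, 15.7, 144, 232 and 34.4 CPM in E4 ICM. At E4, replicates 3 and 4 were highest for Lefty1 and replicates 2 and 5 lowest for Lefty2, and for both genes the times overlapped. The log2 fold changes were 0.62 ± 0.64 for Lefty1 (adjusted p = 0.521) and 0.80 ± 0.60 for Lefty2 (adjusted p = 0.365). Without D10 ICM replicate 3 the values were 0.82 (adjusted p = 0.407) for Lefty1 and 1.06 (adjusted p = 0.209) for Lefty2. Without D10 ICM replicate 1, which held the 613 CPM, the Lefty2 value was -0.040. The transcripts of the 2 genes are 86.7% identical over 1607 aligned bases, and of the runs of 81 bases in their last 500 bases (420 each) 0 are shared with another gene. Summed, they gave 0.79 on the log2 scale (adjusted p = 0.357).

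Smad7 (ENSMUSG00000025880, chromosome 18, 75367529 to 75395935, plus strand) encodes an inhibitory SMAD that blocks TGF-beta family receptors. It had 19.0, 9.89, 16.6, 10.5 and 27.9 CPM in D10 ICM, against 0, 10.4, 13.9, 22.7 and 25.8 CPM in E4 ICM. The groups overlapped throughout, and the log2 fold change was -0.07 ± 0.53 (adjusted p = 0.941).

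Id1 (ENSMUSG00000042745, chromosome 2, 152736251 to 152737410, plus strand), an inhibitor of helix-loop-helix transcription factors and a target of BMP signals, went the other way. It had 57.0, 107, 0, 141 and 51.1 CPM in D10 ICM, against 25.4, 7.84, 20.8, 12.4 and 12.9 CPM in E4 ICM. The D10 libraries other than replicate 3 were all above the E4 libraries, and replicate 3 had no count. The log2 fold change was 2.37 ± 0.56 (adjusted p = 0.00412), and 2.63 ± 0.43 without that library (adjusted p = 0.000237).

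**Figure D1:**
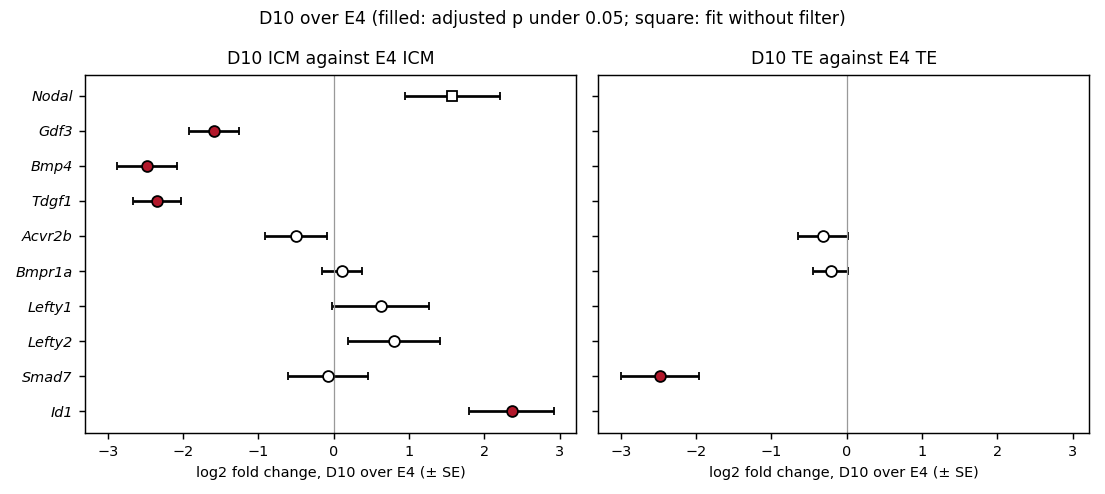
Log2 fold changes of D10 over E4 (± SE) for the 10 genes in ICM and in TE, both panels on 1 axis, where filled points have an adjusted p under 0.05 and squares come from the fit without the filter. In ICM Tdgf1, Bmp4 and Gdf3 lie below 0 and Id1 above it, and in TE, where 3 genes above the floor are drawn, Smad7 lies at -2.48.

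Counts were also set against those of epiblast markers in the same library, as a description with no test, and the outcome depended on the marker. Sox2 did not pass the test between the ICM times (log2 fold change 0.10 ± 0.36, adjusted p = 0.871). Tdgf1 had 0.595, 0.763, 0.0897, 1.61 and 0.218 counts per Sox2 count in D10 ICM, against 3.26, 2.42, 2.02, 3.25 and 1.63 in E4 ICM. Bmp4 had 0.167, 0.298, 0.0128, 0.277 and 0.0484 counts per Sox2 count in D10 ICM, against 1.28, 0.327, 0.723, 0.785 and 0.495 in E4 ICM. Gdf3 had 0.167, 0.123, 0.0641, 0.232 and 0.0645 in D10 ICM, against 0.396, 0.398, 0.268, 0.369 and 0.237 in E4 ICM. For these 3 genes the D10 libraries lay below the E4 libraries per count of Sox2. The same held per count of Tdh, but for each of the 3 genes the groups overlapped per count of the other 8 markers on the list. Per Nanog count, the medians in D10 ICM and E4 ICM were 3.86 and 3.58 for Tdgf1, 0.857 and 1.02 for Bmp4, and 1 and 0.489 for Gdf3. Id1 had 0.286, 0.57, 0, 1.2 and 0.0887 counts per Sox2 count in D10 ICM, against 0.0755, 0.0306, 0.0804, 0.0923 and 0.0323 in E4 ICM, and the groups overlapped through replicates 3 and 5.

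**Figure D2:**
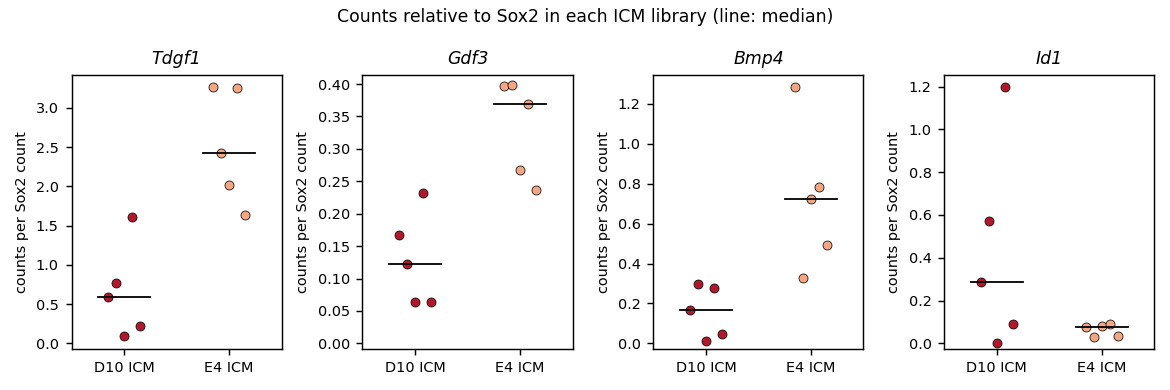
Counts of Tdgf1, Gdf3, Bmp4 and Id1 per count of Sox2 in each ICM library, with points for libraries and a line at the median. The D10 libraries lie below the E4 libraries for Tdgf1, Gdf3 and Bmp4, and the groups overlap for Id1. Per count of 8 of the 10 epiblast markers the groups overlapped for Tdgf1, Gdf3 and Bmp4 too.

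**Figure D3:**
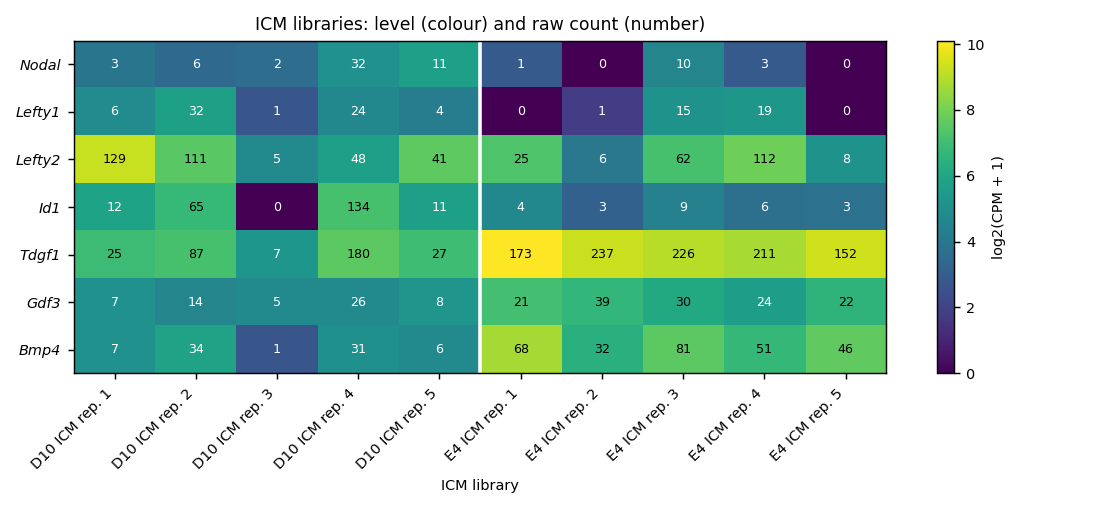
Level of Nodal, Lefty1, Lefty2, Id1, Tdgf1, Gdf3 and Bmp4 in each of the 10 ICM libraries. Colour gives log2(CPM + 1), and the raw count is printed in each cell. D10 ICM replicate 3 has 0 Id1 counts and the lowest Tdgf1 of its group, at 38.8 CPM.

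In TE the members other than Smad7, Bmpr1a and Acvr2b were at or near 0. Over the 5 libraries of D10 TE the counts were 0 for Nodal, Gdf3 and Tdgf1, 1 each for Bmp4, Lefty1 and Lefty2, and 4 for Id1. In E4 TE they were 0 for Nodal, Lefty1, Lefty2 and Id1, 1 for Gdf3, and 2 each for Bmp4 and Tdgf1. A count of 0 over a group allows up to 3 counts, so no change over time in TE could be read for these 7 genes.

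The comparison of D10 TE with E4 TE asked the same question in the extra-embryonic tissue. Smad7 had 14.6, 10.2, 6.02, 0 and 5.46 CPM in D10 TE, against 57.5, 24.9, 36.5, 41.8 and 57.2 CPM in E4 TE. Every D10 library was below every E4 library, as for 6.5% of all genes tested in that direction. Smad7 fell, with a log2 fold change of -2.48 ± 0.52 (adjusted p = 0.00105). It was the 1 member called of 9 tested, against a background of 9.89% of genes called lower and 21.8% in either direction. Among the 9, only Smad7, Bmpr1a and Acvr2b had counts enough in TE for a change to be read, so that share is not comparable with the background. Smad7 itself passed the filter only with its E4 TE libraries, where it was high. Bmpr1a had 76.7, 59.1, 90.3, 82.1 and 92.9 CPM in D10 TE, against 109, 78.8, 131, 73.7 and 64.4 CPM in E4 TE. Acvr2b had 21.9, 26.5, 32.1, 41.9 and 21.9 CPM in D10 TE, against 23.0, 33.2, 41.4, 45.8 and 28.6 CPM in E4 TE. Both receptors overlapped between the times, at -0.21 ± 0.24 for Bmpr1a (adjusted p = 0.565) and -0.31 ± 0.33 for Acvr2b (adjusted p = 0.542). The primitive endoderm sums also differed between the times in TE, at 2666 to 3924 CPM in D10 TE and 1066 to 1485 CPM in E4 TE. Of that list only Dab2 and Lama1 passed the test in TE, at 1.45 ± 0.24 (adjusted p = 0.000112) and 1.70 ± 0.46 (adjusted p = 0.00925). Dab2 alone had 6462 counts in D10 TE and 1435 in E4 TE. At E4 it was lower in ICM than in TE, at -1.41 ± 0.25 (adjusted p = 0.000109). The sum of uterine epithelium markers (5 of 6 in the table) differed too, at 429 to 571 CPM in D10 TE and 122 to 219 CPM in E4 TE. That sum was mostly Wfdc2, with 1086 counts in D10 TE and 218 in E4 TE. Muc1 had 51 and 2 counts, and the others of that list had fewer in D10 TE. The part of these markers in the Smad7 result was not tested.

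Whether the change over time differed between the tissues was tested for the 3 members counted in all 4 groups. For Smad7 the difference of the changes, ICM minus TE, was 2.41 ± 0.76 on the log2 scale (adjusted p = 0.065). With litter as a block it was 2.63 (adjusted p = 0.0364), without the filter 2.42 (adjusted p = 0.0345), without D10 TE replicate 1 2.90 (adjusted p = 0.0368), and in DESeq2 2.52 (adjusted p = 0.0201), so the call depends on the setting. It was 0.32 ± 0.36 for Bmpr1a (adjusted p = 0.680) and -0.19 ± 0.51 for Acvr2b (adjusted p = 0.899). Thus 0 of the 9 tested members passed in edgeR with the filter and without the block, against 4.98% of all genes tested, and 1 of the 3 members read here had an unadjusted p under 0.05.

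The comparison of ICM with TE asked which side of the embryo carried each gene at each time. At E4, 6 tested members were higher in ICM and 2 lower, against backgrounds of 15.8% and 15.4% of all genes tested. At D10, 6 were higher and 1 lower, against 12.9% and 12.6%. Several of these members passed the filter through their ICM libraries alone, so the counts are not read as support. The 4 pairwise comparisons share libraries with one another, and their values are set side by side only.

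The ligands and the co-receptor were on the ICM side at both times. Pooled ratios of E4 ICM over E4 TE were 118 for Gdf3 (95% interval 20.9 to 4702), 121 for Bmp4 (33.1 to 1002) and 434 for Tdgf1 (120 to 3589). At D10, Gdf3 was at least 22.9-fold and Tdgf1 at least 124-fold higher in ICM, against 3 counts over the TE group, and Bmp4 had a ratio of 90.3 (15.7 to 3611). Every ICM library was above every TE library for these genes at both times, as for 10.8% of all genes tested at E4 and 8.05% at D10. The adjusted p-values were 1.59e-07 for Gdf3, 8.92e-08 for Bmp4 and 1.61e-09 for Tdgf1 at E4. At D10 they were 7.76e-07 for Gdf3, 9.11e-06 for Bmp4 and 1.88e-08 for Tdgf1. Without the filter, where 7.17% of 20558 genes were called higher in ICM at D10 and 6% at E4, Nodal was at least 20.6-fold higher at D10 (adjusted p = 1e-08) and at least 4.06-fold higher at E4 (adjusted p = 0.00659). The E4 value rested on replicate 3 of the ICM, without which its adjusted p was 0.168. Adjusted p-values without the filter cannot be read like those of the filtered edgeR fit. Between the tissues at D10, Lefty2 had 1.86e-52 without the filter and 1.53e-05 with it, and Acvr2b had 0.0768 and 0.0247.

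The antagonists and Id1 also lay on the ICM side. Lefty2 was at least 61.7-fold higher in ICM at E4 (adjusted p = 0.000292), and its ratio at D10 was 382 (95% interval 68.0 to 15122, adjusted p = 1.53e-05). Lefty1 was at least 10.1-fold higher at E4 (adjusted p = 0.0046), with a ratio of 76.6 at D10 (13.3 to 3069, adjusted p = 0.000492). At E4 the Lefty1 groups overlapped, since ICM replicates 1 and 5 had no count, while the other Lefty comparisons did not overlap. The single D10 TE count of each Lefty gene was in replicate 1, and without that library the differences at D10 were at least 99.1-fold for Lefty2 and at least 19.9-fold for Lefty1. Id1 was at least 7.24-fold higher in ICM at E4 (adjusted p = 0.00629), and at D10 its log2 fold change was 5.34 ± 0.72 (adjusted p = 9.82e-06), with overlap through D10 ICM replicate 3.

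The receptors and Smad7 lay on the TE side or did not separate. For each of these genes the ICM and TE libraries overlapped at both times. Bmpr1a was lower in ICM at E4 by a log2 fold change of -0.91 ± 0.26 (adjusted p = 0.00841), and at D10 the value was -0.59 ± 0.25 (adjusted p = 0.0839). Acvr2b was lower in ICM at D10, at -1.13 ± 0.37 (adjusted p = 0.0247), and at E4 the value was -0.95 ± 0.37 (adjusted p = 0.051). The D10 call of Acvr2b was lost without the filter (adjusted p = 0.0768) and when any of 4 D10 libraries was omitted, ICM replicates 1 and 4 and TE replicates 3 and 4 (up to 0.108). Smad7 was lower in ICM at E4, at -1.41 ± 0.50 (adjusted p = 0.0316), and at D10 its value was 0.99 ± 0.57 (adjusted p = 0.219). Its E4 call was lost without the litters with a zona, at -1.13 (adjusted p = 0.170), and when any of 6 E4 libraries was omitted, ICM replicates 1 to 3 and TE replicates 1, 4 and 5 (up to 0.0652). Whether the tissue difference itself changed with time is the interaction given above.

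Other genes of these pathways were read from 11 lists of 77 genes, of which 27 were tested and 18 were not among the 10 members. Of those 18, 2 were higher and 1 lower in D10 ICM than in E4 ICM, 16.7% against 23.7% of all genes tested, so the share is not above the background. Smad1, the BMP effector SMAD, had 38.0, 28.0, 11.1, 40.9 and 27.9 CPM in D10 ICM, against 0, 5.22, 2.32, 2.07 and 0 CPM in E4 ICM. Id3, a relative of Id1, had 28.5, 44.5, 16.6, 40.9 and 4.64 CPM in D10 ICM, against 380, 125, 116, 76.5 and 198 CPM in E4 ICM. The groups did not overlap for either gene, and their directions were opposite. Smad1 rose by 3.54 ± 0.68 on the log2 scale (adjusted p = 0.000478), and Id3 had a log2 fold change of -2.44 ± 0.49 (adjusted p = 0.000824). Bmper, a secreted BMP-binding protein, had 76.1, 56.0, 88.6, 34.6 and 32.5 CPM in D10 ICM, against 6.34, 10.4, 30.1, 28.9 and 0 CPM in E4 ICM. It rose by 1.64 ± 0.54 (adjusted p = 0.0279), a call lost without the litters with a zona (1.34, adjusted p = 0.155) and in 6 omissions of 1 library (up to 0.0668). Among these was the omission of D10 ICM replicate 3, which gave 1.47 (adjusted p = 0.0642).

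In TE, 2 of the 18 were higher at D10 and 1 lower, 16.7% against 21.8% of all genes tested. Smad1 had 71 counts in D10 TE and 3 in E4 TE, a ratio of 14.0 (95% interval 4.61 to 69.6, adjusted p = 0.000825). Tgif1, a repressor of SMAD targets, rose by 1.00 ± 0.31 (adjusted p = 0.0203), a call lost without the litters with a zona (adjusted p = 0.210). Skil, another SMAD repressor, had a log2 fold change of -0.86 ± 0.28 (adjusted p = 0.0275), a call lost without the filter (adjusted p = 0.0890) and with libraries thinned to 1 depth (0.184). For the difference of the changes 0 of the 27 genes passed in edgeR with the filter, all libraries and no block, and 2 had an unadjusted p under 0.05. Smad7, among the 27, passed in other settings, as given above.

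Between the tissues 6 of the 18 passed at each time, 33.3% against 31.2% of all genes tested at E4 and 25.5% at D10. Pmepa1, a TGF-beta-induced inhibitor of receptor SMADs, was higher in ICM by 3.35 ± 0.56 at E4 (adjusted p = 6.24e-05) and by 4.40 ± 0.59 at D10 (adjusted p = 3.45e-06), where 8 of 10 TE counts were in replicate 1 and the pooled ratio without it was 108 (95% interval 29.6 to 898). The BMP target Msx1 was higher by 2.82 ± 0.67 at E4 (adjusted p = 0.00203) and 3.00 ± 0.69 at D10 (adjusted p = 0.00186). Id2, in contrast to Id1 and Id3, was lower in ICM. It had 908, 1228, 814, 678 and 492 CPM in D10 ICM, against 1449, 2129, 1699, 1553 and 1467 CPM in D10 TE, with a log2 fold change of -1.01 ± 0.30 (adjusted p = 0.0134), and at E4 -1.74 ± 0.30 (adjusted p = 9.79e-05). Id3 was higher in ICM by 4.97 ± 0.69 at E4 (adjusted p = 6.51e-06) and by 2.61 ± 0.68 at D10 (adjusted p = 0.0053), the D10 call being lost with thinned libraries (0.164). Bmper had a ratio of 27.8 at E4 (95% interval 4.65 to 1130, adjusted p = 0.00402) and a log2 fold change of 4.35 ± 0.67 at D10 (adjusted p = 2.24e-05), where 5 of 6 TE counts were in replicate 1 and the pooled ratio without it was 94.3 (16.6 to 3761). Tgif1 was higher in ICM at E4 by 1.12 ± 0.31 (adjusted p = 0.00777, and 0.180 without the litters with a zona), and Smurf1, a ubiquitin ligase for SMADs, was lower at D10 at -1.37 ± 0.41 (adjusted p = 0.0157, and 0.0527 without the filter).

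**Figure D4:**
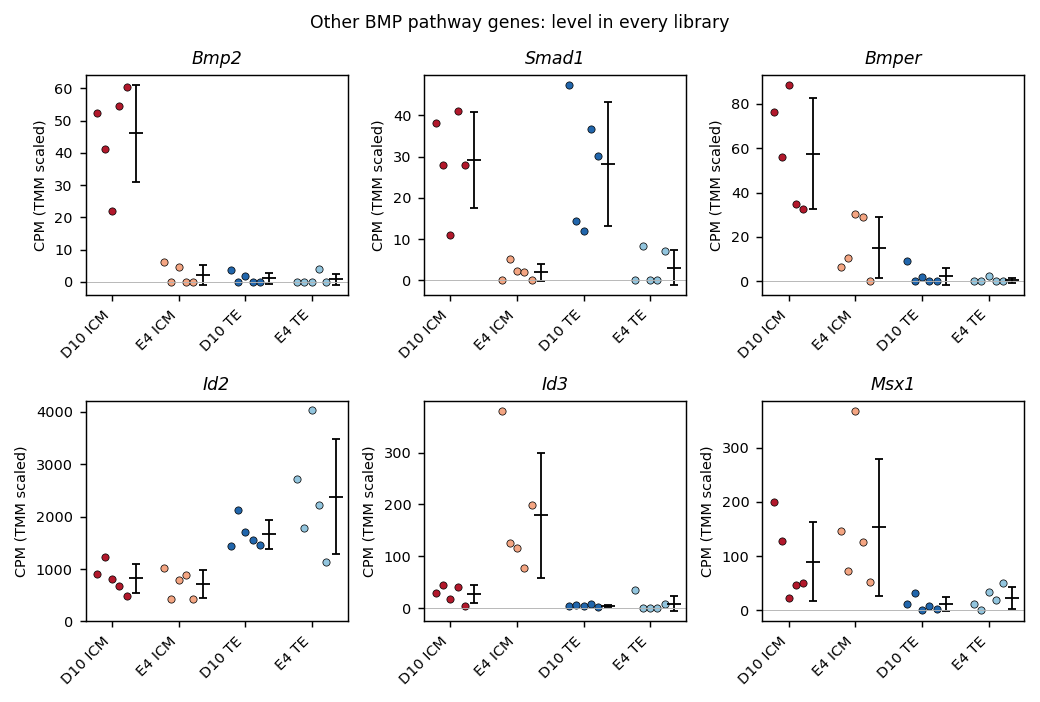
Level of Bmp2, Smad1, Bmper, Id2, Id3 and Msx1 in every library, in CPM scaled by TMM, with points for libraries and the mean ± SD. Smad1 is higher at D10 in both tissues, Id3 is lower at D10 in ICM, and Id2 is lower in ICM than in TE at both times.

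For each tested member, the 3 genes with the most similar profile over the 4 groups were found by the root mean square (RMS) difference of centred log2 CPM means. Gdf3 was closest to Fgf4 (0.076), a ligand made by the epiblast, then Slc1a3 (0.10) and Sfrp1 (0.22). Bmp4 was closest to Jam2 (0.18), Utf1 (0.35) and Gdf3 (0.42), and Tdgf1 to Fn1 (0.82), Sox2 (0.87) and Utf1 (0.91). Lefty2 was closest to Sox17 (0.15), a primitive endoderm factor, then Flrt3 (0.16) and Serpinh1 (0.22). Lefty1 was closest to Rcbtb1 (0.11), Mdk (0.11) and Cenpm (0.14), Id1 to Sox7 (0.16), Cenpm (0.18) and Rcn3 (0.18), and Smad7 to Mt2 (0.13), Ppp1ccb (0.15) and Actg1 (0.16). Acvr2b was closest to Dld, Zdhhc13 and Plcd1, and Bmpr1a to Desi2, Zswim1 and Azi2. These likenesses rest on 4 group means and describe these libraries only.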

How the data were processed

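Raw counts for 21470 genes in 20 barcoded libraries, as deposited, were used. They come from BRB-seq, a method that reads the 3′ ends of polyadenylated transcripts. Per the labels' protocols, the reads carried 10 bases of molecular identifier, 9 of barcode and 81 of insert. Tools named in the submitters' processing notes are HISAT2 2.2.1, featureCounts 2.0.1, Trim Galore 0.6.7 and UMI-tools, with GRCm38 and GRCh38 as builds, without saying what each was used for. The sources used here do not give the annotation, the use of strand or any collapsing by molecular identifier, so intervals cover counting error only. Litter and zona came from a deposited barcode list, whose values are other text per the file headers. Coordinates are from GENCODE M21 (GRCm38), which matched 21442 of 21470 gene identifiers.

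Genes with enough counts by filterByExpr (minimum count 10) numbered 6943 and were tested in 1 fit of all 20 libraries with edgeR 4.0.16 in R 4.3.3, by its quasi-likelihood test with TMM normalization. The Benjamini-Hochberg adjustment ran over all genes tested in each of 5 comparisons, and the threshold was 0.05. Values are TMM-scaled CPM, mean ± SD over 5 libraries, and log2 fold changes ± SE. Where a group held only 1 to 3 counts of a gene, pooled counts were compared as a ratio with its 95% Clopper-Pearson interval (exact), and against a group at 0 a bound was taken from 3 counts over that group. No source states whether a library is 1 embryo. The p-values thus reflect only how these libraries vary, which may be technical. The lowest chi-square per degree of freedom between libraries of a group was 2.57, so none were merged. The test was checked on simulated data.

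Libraries with the same number share a litter within a time, per the barcode list. Their deviations from the group means correlated across genes, at E4 with a mean r of 0.177 (5 pairs, 0.104 to 0.263) and at D10 with 0.168 (-0.0302 to 0.293). An alternative fit of the tissue comparisons and the interaction therefore had litter as a block. Other alternatives were DESeq2 1.42.0, its size factors in edgeR, no filter, a minimum count of 30, thinning, omission of the litters with a zona, and omission of each library. The members and the gene lists were chosen with earlier results of these data known. Named genes were all 10 members, other list genes past the threshold (up to 4 per list and comparison), and for each tested member the 3 genes of most similar profile. Nodal, outside the filter, was read from the fit without it, with each library omitted in turn, an alternative added after seeing the data. Counts per epiblast marker and pooled counts without the library that held most of them were also added then. Nanog, Tdh, Esrrb, Wfdc2, Muc1 and the single primitive endoderm and trophectoderm markers are named after their values were seen. Motifs were searched with Biopython 1.88.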

Additional observations from a re-analysis of the deposited data

Results flagged for a closer look

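Of 33 combinations of a member and a group with any spread, 6 had a library set apart from the other 4 by Dixon's criterion (critical value 0.71). Its chance rate of about 1 in 20 holds for normally distributed values, so it is no yardstick for sparse counts. In 4 of the 6 the group held at most 3 counts in all, and a lone count among libraries at 0 always meets the criterion. These were Bmp4 in D10 TE replicate 2 (2.04 CPM), Gdf3 in E4 TE replicate 2 (4.15 CPM), and Lefty1 and Lefty2 in D10 TE replicate 1 (1.83 CPM each), where all other libraries of the group had 0. D10 TE replicate 1 also held all 10 Tdh counts and 36 of 44 Col4a1 counts of its group, but no Sox2 count. The part of such markers in the Lefty result was not tested.

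Lefty2 in D10 ICM replicate 1 stood at 613 CPM, against 190 CPM in the next library of its group. Without that library the log2 fold change of Lefty2 between the ICM times was -0.040, against 0.80 with it. Nodal in E4 ICM replicate 3 stood at 23.2 CPM, against 6.34 CPM in the next library. That library was also among those highest in Lefty1.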

How the results depend on the processing

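Over 54 gene results, 1309 of 1368 recomputed gene values kept their direction and their side of the threshold. With a minimum count of 30 or with libraries thinned to 144276 counts, fewer genes were tested (3504 and 3847), and Gdf3, Acvr2b, Lefty1, Smad7 and Id1 dropped out. In each of these 2 settings the members called were then 2 in ICM over time, 0 in TE over time, 4 between the tissues at E4 and 3 at D10. Thinning left 874 of all genes called in ICM over time, 791 in TE over time, 1231 between the tissues at E4, 897 at D10 and 163 for the interaction. The minimum count of 30 left 1003 in TE over time, 1404 at E4 and 1170 at D10.

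For the interaction, 1 member (Smad7) was called in place of 0 in DESeq2 (2.52, adjusted p = 0.0201), without the filter (2.42, 0.0345) and with the replicate block of litter (2.63, 0.0364). The block changed no other member's call. All genes called for the interaction numbered 538 without the filter and 198 without the litters with a zona, against 346, and the cause was not tested. The sign reversed for Bmpr1a in TE over time with thinned libraries, at 0.12 (adjusted p = 0.825).

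Omitting 1 library at a time kept 4 members called in ICM over time (4 to 4), 1 in TE over time (1 to 1), 7 to 9 at E4, 6 to 7 at D10 and 0 to 1 for the interaction, where 1 came without D10 TE replicate 1 (Smad7 2.90, adjusted p = 0.0368). All genes called ran over 1331 to 1734 in ICM over time, 1292 to 1636 in TE, 1860 to 2257 at E4, 1496 to 1887 at D10 and 280 to 384 for the interaction. The sign reversed in some omissions for Lefty2 in ICM over time (lowest value -0.040, highest 1.28), Smad7 there (-0.28 to 0.18) and the interaction of Acvr2b (lowest -0.41, highest 0.067), none of which had passed. Acvr2b at E4 passed with DESeq2's size factors (adjusted p = 0.0460) and in 12 of 20 omissions. Summing Lefty1 and Lefty2 changed no call. Depth limits the genes with few counts, above all Nodal and every member at 0 in TE.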

Other observations

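Of the pathway lists, 36 genes that had counts but did not pass the filter, Nodal among them, were examined in the fit without it, and genes are named here after their values were seen. In that fit 6 were higher and 0 lower in D10 ICM than in E4 ICM, where 6.46% of 20558 genes were called higher and 3.35% lower. The 36 genes were taken for failing the filter, while the background holds all genes with a count, so the shares are not comparable. Adjusted p-values of the fit without the filter cannot be read like those of the filtered fit, as given above for Lefty2. Bmp2, a BMP ligand like Bmp4, had 52.3, 41.2, 22.2, 54.6 and 60.4 CPM in D10 ICM, against 6.34, 0, 4.63, 0 and 0 CPM in E4 ICM. The groups did not overlap, and the ratio of pooled counts, 105 over 3, was 27.3 (95% interval 9.08 to 134, adjusted p = 8.36e-09). Bmp2 thus rose in the tissue in which Bmp4 fell, and it had 3 counts in D10 TE and 2 in E4 TE.

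The others included Tgfbr3, Fst, Fstl1 and Smad6. Fst, follistatin, an antagonist of activin, had 19 counts in D10 ICM and 0 in E4 ICM, at least 4.94-fold higher. Replicate 4 held 12 of the 19, and without it the difference was at least 3.25-fold. Smad6, an inhibitory SMAD of the BMP branch, had 51 counts in D10 ICM and 9 in E4 ICM, a ratio of 4.42 (95% interval 2.15 to 10.2). Fstl1 had 32 counts in D10 ICM and 1 in E4 ICM, a ratio of 24.9 (4.17 to 1016). Replicate 2 held 20 of the 32, and without it the ratio was 13.0 (1.92 to 556). Tgfbr3, a co-receptor of TGF-beta ligands, had 94 counts in D10 ICM and 0 in E4 ICM, and 77 of the 94 were in replicate 4. Without that library the difference was at least 7.89-fold, against at least 24.4-fold with it.

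Between ICM and TE at D10, 12 of the 36 genes were higher in ICM and 0 lower in the same fit, in which 7.17% of all genes were called higher. At E4, 1 of the 36 (Nodal) was higher and 0 lower, where 6% of all genes were called higher. In TE over time 0 passed in edgeR without the filter, and these genes were not run in another tool.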
